A study of Homo sapiens with 7 samples.

Results

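The chaperones of the endoplasmic reticulum (ER) and the genes of the unfolded protein response (UPR) were compared between H9 human embryonic stem cells transfected with guide RNA plasmids named DJL1 and cells transfected as a control named CTRL. The set held 36 genes, taken by symbol from the 59251 rows of the count table, and all 36 had a row and passed the filter on low counts. There were 3 DJL1 libraries and 4 CTRL libraries, each from poly(A) RNA harvested 48 h after transfection. H9 is an established pluripotent line of 1 origin, held here in RSeT, a medium for the naive state. DZNep at 10 nM, which lowers histone methylation, and TSA at 5 nM, which blocks histone deacetylases, were given to both groups. For the initial 16 h both received the CEPT survival cocktail, which contains 0.7 µM trans-ISRIB, a drug that blunts the integrated stress response, a pathway that the PERK arm of the UPR feeds into. By its title, the study concerns LINE1 elements beside the ribosomal DNA arrays and the organization of nucleoli. The protein that the guides direct and what the CTRL cells received in place of the DJL1 guides are not stated in the labels.

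Secreted and membrane proteins are folded in the ER, where HSPA5 (BiP) and HSP90B1 (GRP94) hold unfolded chains, calnexin and calreticulin bind sugar-bearing chains, and protein disulfide isomerases form disulfide bonds. Proteins that do not fold are moved back to the cytosol for breakdown, a process called ER-associated degradation (ERAD). When unfolded proteins build up, the membrane sensors ERN1 (IRE1), ATF6 and EIF2AK3 (PERK) are activated; ERN1 splices XBP1 RNA, ATF6 is cut to release a transcription factor, and PERK slows translation and favours ATF4. Splicing of XBP1, cutting of ATF6 and phosphorylation of PERK targets are not seen in gene counts, so RNA levels alone were compared.

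Of the 36 genes, 20 were higher and 6 lower in DJL1 cells and 10 did not pass the test (edgeR's quasi-likelihood test, adjusted p under 0.05 over 26062 genes). Over all tested genes 27% were called higher and 25.1% lower, together 52%. The BiP gene HSPA5, the ERAD genes HERPUD1 and DERL3 and the disulfide oxidase gene ERO1B stood highest by fold change. Next came the GRP94 gene HSP90B1 and the ER stress gene CRELD2, whereas the derlin genes DERL1 and DERL2 were lower. The median log2 fold change over the 36 genes was 0.26, against 0.01 over all tested genes, and the extremes were 1.62 for DERL3 and -0.63 for EDEM2, which was not called. At least 2-fold changes were called for 3 of the 36 genes, DERL3, HERPUD1 and HSPA5, while 12.9% of all tested genes changed by that much. In 26 of the 36 genes no DJL1 library overlapped a CTRL library, 21 with DJL1 higher and 5 with DJL1 lower; over all tested genes this held for 27.4% with DJL1 higher and 26.2% with DJL1 lower.

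**Figure D1:**
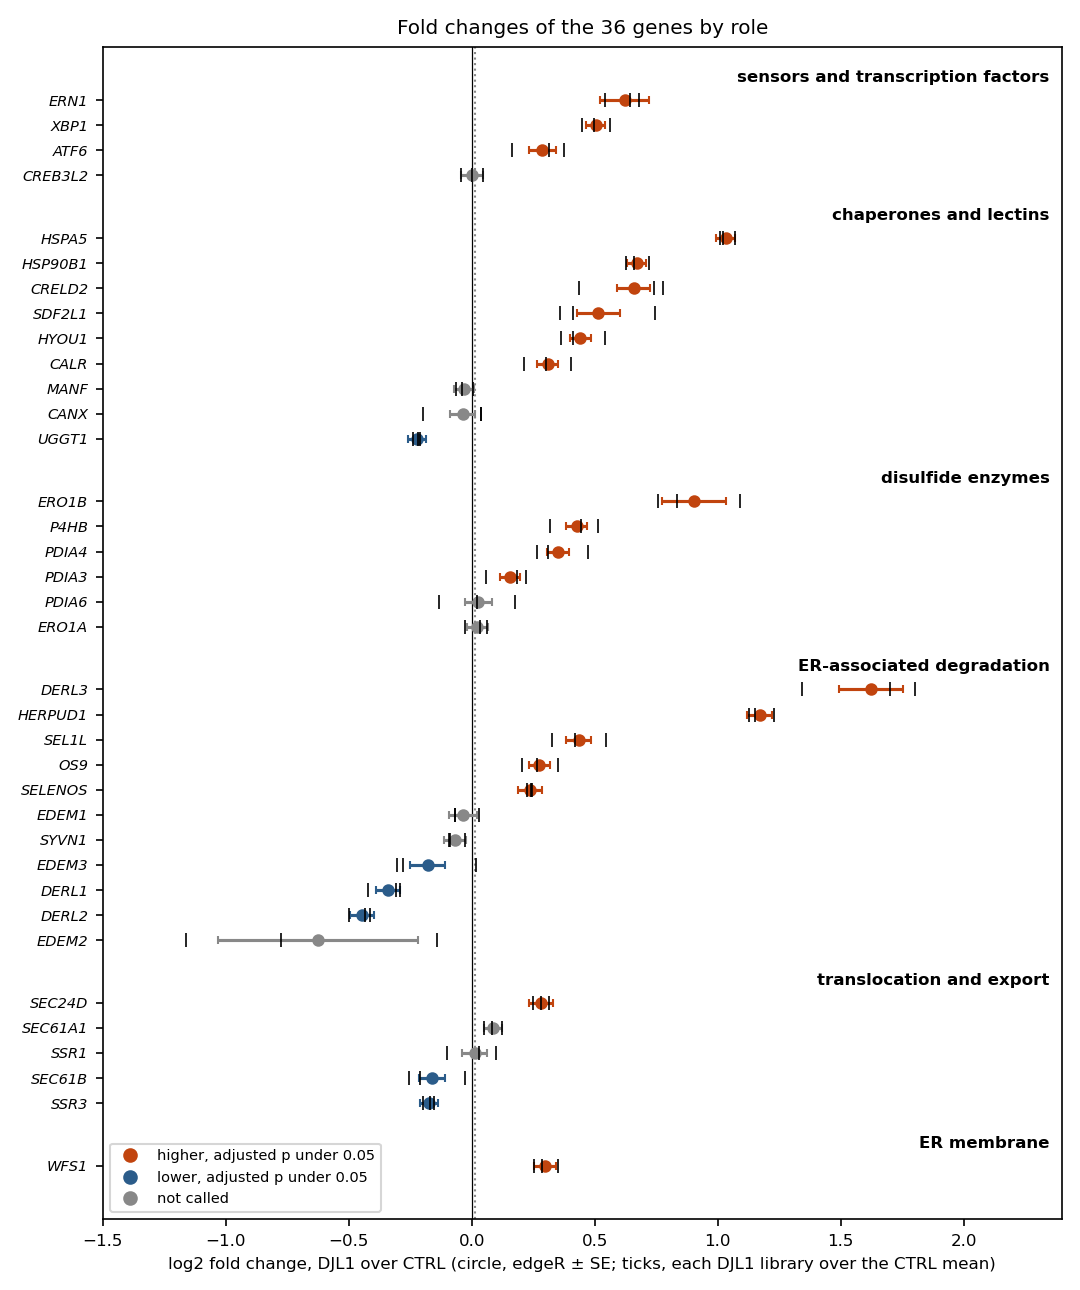
The plot of fold changes shows the 36 genes by role, with the log2 fold change of DJL1 over CTRL on the x axis (circles, edgeR estimate with its SE; ticks, each DJL1 library over the CTRL mean; dotted line, median of all tested genes). Chaperone, sensor and disulfide genes lie mostly right of 0, and the ERAD genes run from -0.63 to 1.62.

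In summed level the 36 genes held 9869 to 10623 CPM (read counts scaled to a common library size) in the 3 DJL1 libraries and 7509 to 7691 CPM in the 4 CTRL libraries. The groups did not overlap in this sum, most of which came from chaperones and lectins, with 6658 to 7158 CPM in DJL1 and 4642 to 4814 CPM in CTRL. Among the 612 tested genes above 256 CPM 25% were higher and 52.6% lower in DJL1, while of the 10 members at that level 7 were higher and 3 were not called. At 16 to 64 CPM 27.5% of tested genes were higher and 41.7% lower, while of 15 members 7 were higher and 4 lower, and at 64 to 256 CPM 23.1% were higher and 51.2% lower, while of 7 members 3 were higher and 2 lower. Total counts ran from 34634882 to 37795742 in the DJL1 libraries and from 62277489 to 76691997 in the CTRL libraries, so depth differed with the group, and its part in the result was not tested beyond thinning all libraries to the smallest total, which left 20 members higher and 5 lower. Spread between libraries was also wider in DJL1: the median coefficient of variation over the 36 genes was 4.99% there and 2.34% in CTRL. Among the DJL1 libraries replicate 3 was the highest for 23 of the 36 genes and replicate 2 the lowest for 19. The labels give no batch, so a difference in preparation or sequencing between the groups cannot be told apart from the transfection.

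Per length of transcript (the longest basic protein-coding transcript of GENCODE 29), HSP90B1, CALR and HSPA5 had the highest levels in both groups. In DJL1 HSP90B1 stood at 616 ± 20.8 CPM per kilobase, CALR at 609.8 ± 40.4 and HSPA5 at 554 ± 12.2 (SD, n = 3). CTRL libraries had CALR at 492 ± 3.31 CPM per kilobase, HSP90B1 at 387 ± 10.6 and HSPA5 at 271 ± 9.54 (SD, n = 4). The leading pair in DJL1, HSP90B1 and CALR, did not differ beyond their spread, whereas in CTRL the 3 levels were apart by more than their spread. Next came P4HB and CANX, at 188 ± 12.9 and 188 ± 17.3 CPM per kilobase in DJL1 and at 139.9 ± 1.38 and 192.5 ± 0.75 CPM per kilobase in CTRL. At the low end ERO1B stood at 1.40 CPM per kilobase in DJL1 and 0.75 in CTRL, ERN1 at 1.00 in DJL1 and 0.65 in CTRL, and EDEM2 at 0.15 in DJL1 and 0.23 in CTRL.

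Promoter sequences were examined because several of the higher members are textbook targets of ATF6 and XBP1, which bind ER stress elements. RefSeq windows of GRCh38.p14, from 250 bases before to 50 after the start of transcription, were found for 32 of the 36 genes; PDIA3, DERL1, DERL3 and SEC24D had no entry. Both strands were searched for the ER stress element ERSE (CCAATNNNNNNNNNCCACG, N any base), in which the CCAAT part binds NF-Y and the CCACG part ATF6, for ERSE-II (ATTGGNCCACG), for the UPR element core (TGACGTGG) and for the C/EBP-ATF element core (TGATGCAA) known for ATF4. ERSE was found for 8 of the 32 genes, against 0.0773% of 34943 promoters, and ERSE-II for 3 of the 32, against 0.0544%. For each element a member counted if any of its windows matched. The 34943 promoters were counted by window and include those of the members, so the shares are not of like units. The UPR element core lay near 2 members (HYOU1 and SSR3; 0.73% of promoters) and the C/EBP-ATF core near 1 (HERPUD1; 0.87%). The genes of this list are known for such elements, so the list is not independent of the motif, and a match is a description of letters and not of binding. Each ERSE or ERSE-II is given below as it reads 5′ to 3′ from CCAAT or ATTGG, with the fixed letters in capitals, so that the spacers can be compared; positions and strands are those of GRCh38.p14.
XBP1 ERSE, chr22:28800603-28800621, minus strand: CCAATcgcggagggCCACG
HSPA5 ERSE, chr9:125241391-125241409, minus strand: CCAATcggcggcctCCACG
HSP90B1 ERSE, chr12:103930216-103930234, plus strand: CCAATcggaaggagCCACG
HSP90B1 ERSE, chr12:103930321-103930339, minus strand: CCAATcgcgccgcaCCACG
HYOU1 ERSE-II, chr11:119057380-119057390, plus strand: ATTGGaCCACG
HYOU1 ERSE-II, chr11:119057274-119057284, plus strand: ATTGGaCCACG
SDF2L1 ERSE-II, chr22:21642114-21642124, minus strand: ATTGGtCCACG
CRELD2 ERSE, chr22:49918554-49918572, minus strand: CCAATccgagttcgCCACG
CALR ERSE, chr19:12938384-12938402, minus strand: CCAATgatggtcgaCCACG
CANX ERSE, chr5:179698778-179698796, plus strand: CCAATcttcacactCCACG
PDIA6 ERSE, chr2:10812853-10812871, minus strand: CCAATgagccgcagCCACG
ERO1B ERSE, chr1:236282183-236282201, plus strand: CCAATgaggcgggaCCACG
HERPUD1 ERSE-II, chr16:56932025-56932035, plus strand: ATTGGgCCACG

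By call, ERSE or ERSE-II was found for 9 of the 17 higher genes with a window, for 0 of the 5 lower genes and for 2 of the 10 that were not called (CANX and PDIA6). The median log2 fold change was 0.52 over the 11 genes with such an element and 0.01 over the 21 genes with a window and none. Outside the list, 33 other genes had an ERSE or ERSE-II in a window, of which 29 were tested, 11 were higher and 5 lower, with a median of 0.05. Among them FICD, which encodes the enzyme that AMPylates BiP, was higher by 0.35. ALG12, a glycosylation gene with an ERSE, was lower (-0.29, adjusted p = 0.0010 by edgeR). SERP1, a partner of the translocon, had a log2 fold change of 0.05 and was not called. FICD, ALG12 and SERP1 were named after their values were seen. Spacers differed between genes while the outer letters were fixed by the search. Promoters of 4 genes are shown whole upstream of the start, since they belong to members with large or well-known responses; capitals mark every element found, and where the element lies on the opposite strand (the ERSE of CRELD2, the ERSE-II copies of HYOU1 and the C/EBP-ATF core of HERPUD1) its letters read as the reverse complement.
HSPA5 promoter, chr9:125241344-125241593, minus strand: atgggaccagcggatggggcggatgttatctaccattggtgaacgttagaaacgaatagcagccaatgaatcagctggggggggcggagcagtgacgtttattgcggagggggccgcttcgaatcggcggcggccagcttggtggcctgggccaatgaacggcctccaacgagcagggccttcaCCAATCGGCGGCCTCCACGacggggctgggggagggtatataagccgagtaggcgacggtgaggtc
HERPUD1 promoter, chr16:56931892-56932141, plus strand: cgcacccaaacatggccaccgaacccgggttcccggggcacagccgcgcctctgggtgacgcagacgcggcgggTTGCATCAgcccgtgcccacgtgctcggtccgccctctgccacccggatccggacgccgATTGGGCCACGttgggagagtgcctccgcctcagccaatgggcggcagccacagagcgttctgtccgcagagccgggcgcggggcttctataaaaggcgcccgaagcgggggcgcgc
CRELD2 promoter, chr22:49918384-49918633, plus strand: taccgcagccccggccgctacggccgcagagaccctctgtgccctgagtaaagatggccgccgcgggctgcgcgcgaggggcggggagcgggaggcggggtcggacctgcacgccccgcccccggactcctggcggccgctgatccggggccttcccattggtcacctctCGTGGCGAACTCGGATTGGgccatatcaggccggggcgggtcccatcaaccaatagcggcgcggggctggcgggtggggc
HYOU1 promoter, chr11:119057206-119057455, minus strand: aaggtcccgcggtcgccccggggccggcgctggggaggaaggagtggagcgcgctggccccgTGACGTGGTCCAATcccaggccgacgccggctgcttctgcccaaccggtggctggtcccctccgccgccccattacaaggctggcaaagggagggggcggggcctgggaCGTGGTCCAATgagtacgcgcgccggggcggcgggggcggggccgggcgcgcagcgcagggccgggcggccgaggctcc
In HYOU1 the UPR element core overlapped the more distant of its pair of ERSE-II copies.

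**Figure D2:**
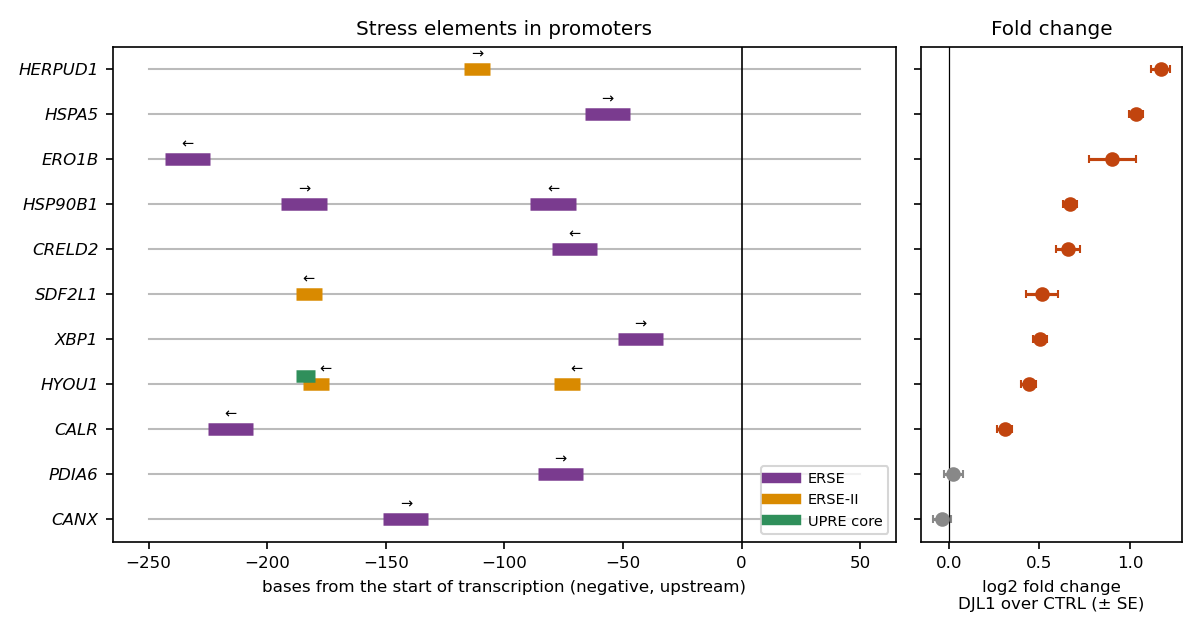
The map of stress elements shows, for the 11 genes with an ERSE or ERSE-II, the position of each element relative to the start of transcription in bases (arrows, orientation; left) beside the log2 fold change of DJL1 over CTRL with its SE (right). Where a gene has several windows, the first listed window with an element is shown. Elements in the windows shown lie from 243 to 34 bases upstream. CANX has 4 windows, and its ERSE spans the start in another of them. PDIA6 has 2, and the window not shown has no ERSE. The genes with elements run from -0.04 for CANX to 1.17 for HERPUD1.

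Of the 4 sensor and transcription factor genes 3 were higher. XBP1, the transcription factor that ERN1 activates by splicing (chr22:28794560-28800569, GRCh38.p14), had 183, 177 and 191 CPM in DJL1 and 129, 131, 126 and 132 CPM in CTRL. No DJL1 library overlapped a CTRL library, and the log2 fold change was 0.50 ± 0.04 (SE, adjusted p = 5.5e-08). ERN1, the kinase and ribonuclease that splices XBP1 (chr17:64039142-64130144), stood at 7.46, 8.22 and 8.01 CPM in DJL1 against 5.04, 4.88, 5.08 and 5.53 CPM in CTRL. Though weakly expressed, it was higher in each DJL1 library than in any CTRL library (0.62 ± 0.10, adjusted p = 8.7e-05). ATF6 (chr1:161766320-161964070) had 45.6, 43.8 and 39.4 CPM in DJL1 and 34.3, 35.1, 36.2 and 35.1 CPM in CTRL, a smaller difference without overlap (0.29 ± 0.05, adjusted p = 0.00038). CREB3L2, a related membrane-bound transcription factor of secretory cells, averaged 62.8 ± 1.92 CPM in DJL1 and 62.7 ± 2.11 CPM in CTRL, and its libraries overlapped (0.0020 ± 0.04, adjusted p = 0.98).

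Among 9 chaperones and lectins 6 were higher, 1 was lower and 2 were not called. HSPA5, the ER member of the HSP70 family and the chaperone that holds the 3 sensors inactive (chr9:125234853-125241343), had 2131, 2146 and 2219.9 CPM in DJL1 and 1061, 1006, 1071 and 1094 CPM in CTRL. The level in DJL1 was 2.05-fold that in CTRL, with tight libraries on both sides (1.03 ± 0.04, adjusted p = 3.7e-11). HSP90B1, the ER member of the HSP90 family (chr12:103930410-103947926), stood at 1826, 1709.6 and 1746 CPM in DJL1 and 1107, 1064, 1134 and 1119.6 CPM in CTRL (0.67 ± 0.04, adjusted p = 2.4e-09). HYOU1, which exchanges the nucleotide of BiP, had 743, 718 and 814 CPM in DJL1 against 557, 551, 562 and 565 CPM in CTRL (0.44 ± 0.04, adjusted p = 5.1e-07). For both genes all DJL1 libraries lay above all CTRL libraries.

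The smaller ER proteins moved unequally. CRELD2, a secreted ER stress protein with disulfide isomerase activity (chr22:49918634-49927537), had 53.6, 66.2 and 67.9 CPM in DJL1 and 40.1, 38.4, 39.7 and 40.4 CPM in CTRL, with replicate 1 the lowest DJL1 library yet above CTRL (0.66 ± 0.07, adjusted p = 7.7e-07). SDF2L1, a cofactor in the BiP cycle (chr22:21642302-21644299), stood at 30.1, 31.2 and 39.3 CPM in DJL1 and 21.6, 24.6, 21.8 and 25.8 CPM in CTRL. Replicate 3 stood above the other DJL1 libraries, and the groups did not overlap (0.52 ± 0.09, adjusted p = 0.00014). MANF, a secreted ER stress factor that binds BiP, averaged 74.2 ± 1.83 CPM in DJL1 (n = 3) and 75.8 ± 1.36 CPM in CTRL (n = 4) and was not called (-0.03 ± 0.04, adjusted p = 0.56 by edgeR), with overlapping libraries. Of the lectin chaperones CALR rose by 0.31, with libraries between 1085 and 1239 CPM in DJL1 and between 930.1 and 944 CPM in CTRL, while its membrane-bound relative CANX ranged from 715 to 843 CPM in DJL1 and from 815 to 822 CPM in CTRL and was not called (-0.04 ± 0.05). UGGT1, which returns misfolded glycoproteins to these lectins, was lower, at 113 to 115 CPM in DJL1 and 132 to 134 CPM in CTRL (-0.22 ± 0.04, adjusted p = 9.0e-05).

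**Figure D3:**
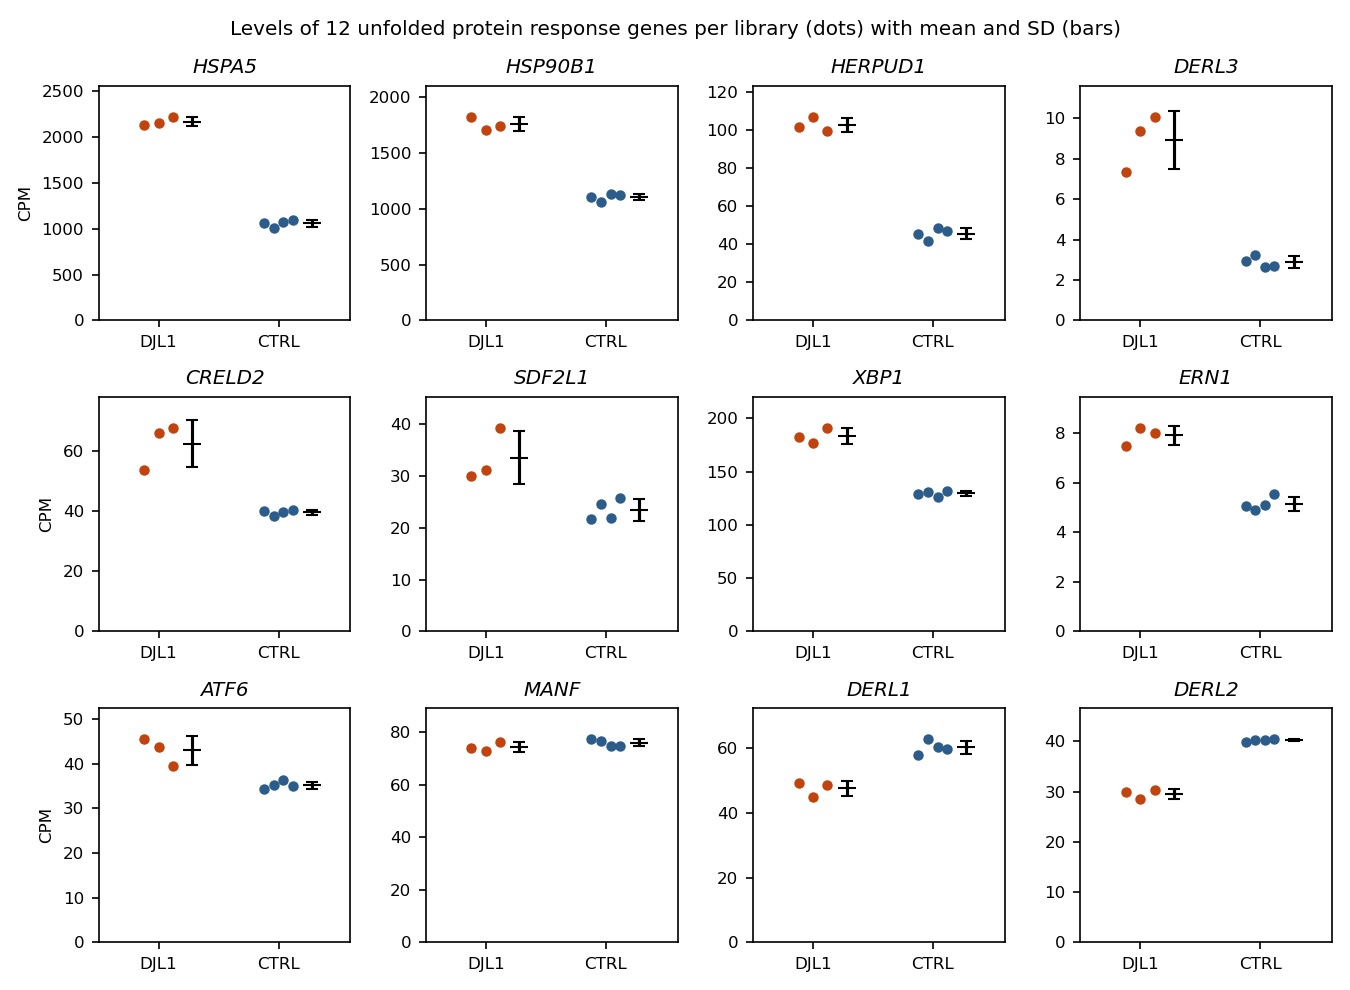
The plot of levels shows CPM on the y axis (from 0) for 12 genes in each DJL1 library (left, n = 3) and each CTRL library (right, n = 4), with mean and SD beside the dots. HSPA5, HSP90B1, HERPUD1, DERL3, CRELD2, SDF2L1, XBP1, ERN1 and ATF6 are higher in every DJL1 library than in any CTRL library, MANF overlaps, and DERL1 and DERL2 are lower.

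Disulfide enzymes were higher in 4 of 6 cases and not called in the other 2. P4HB, a protein disulfide isomerase and subunit of prolyl hydroxylase, had 454, 495 and 520.0 CPM in DJL1 against 359.6, 363, 366 and 368 CPM in CTRL. All DJL1 libraries were above CTRL (0.43 ± 0.04, adjusted p = 9.0e-07). ERO1B, one of a pair of oxidases that recharge the isomerases, had 7.31, 6.11 and 5.80 CPM in DJL1 and 3.66, 3.21, 3.83 and 3.01 CPM in CTRL, a 1.87-fold higher level from a low base (0.90 ± 0.13, adjusted p = 3.0e-05). Its paralogue ERO1A, the more abundant of them per kilobase, stood at 55.7 ± 1.73 CPM in DJL1 and 54.8 ± 0.73 CPM in CTRL and was not called (0.02 ± 0.04, adjusted p = 0.69 by edgeR). PDIA4 and PDIA3, isomerases for secreted and glycosylated chains, rose by 0.35 and 0.16, and PDIA6, which also tunes ERN1, was not called (0.03 ± 0.06), with DJL1 libraries from 236 to 293 CPM on both sides of the CTRL range of 255 to 261 CPM. Reads of PDIA3 can be shared with its pseudogene PDIA3P1, whose counts came to 15.3% of those of PDIA3.

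ERAD genes were divided, with 5 of 11 higher, 3 lower and 3 not called. Over all tested genes 27% were higher and 25.1% lower. At 16 to 64 CPM, where most of these ERAD genes lie, the shares were 27.5% and 41.7%. HERPUD1, which gathers the ubiquitin ligase complex at the ER membrane (chr16:56932142-56944864), had 102, 107 and 99.9 CPM in DJL1 and 45.3, 41.8, 48.6 and 47.1 CPM in CTRL. Its level in DJL1 was 2.25-fold that in CTRL, and the groups stood far apart (1.17 ± 0.05, adjusted p = 1.6e-10). SEL1L, the adaptor of the ligase SYVN1 (HRD1), had 68.9, 63.2 and 59.2 CPM in DJL1 against 47.1, 47.6, 46.6 and 47.4 CPM in CTRL (0.44 ± 0.05, adjusted p = 3.4e-06). SYVN1 itself averaged 46.1 ± 1.18 CPM in DJL1 and 48.3 ± 1.46 CPM in CTRL and was not called (-0.07 ± 0.05, adjusted p = 0.24 by edgeR). Its span overlaps MRPL49, which had more counts in all (30532 against 17949) and was not called (-0.04). The lectin gene OS9 and the selenoprotein gene SELENOS, both of the ligase complex, rose by 0.28 and 0.24.

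The 3 derlins, membrane proteins of the retrotranslocation channel, differed in direction. DERL3 (chr22:23834503-23839006) had 7.33, 9.39 and 10.1 CPM in DJL1 and 2.94, 3.26, 2.65 and 2.71 CPM in CTRL. From this low base its level was 3.08-fold higher, the largest fold among the 36 genes (1.62 ± 0.13, adjusted p = 7.3e-08), and its library counts were 281 to 374 in DJL1 and 165 to 248 in CTRL. Its annotated span overlaps SMARCB1, which was far more abundant (159 CPM in DJL1 and 161 CPM in CTRL) and was not called (-0.02, adjusted p = 0.69). DERL2 (chr17:5471254-5486817) had 29.8, 28.5 and 30.2 CPM in DJL1 and 39.9, 40.2, 40.3 and 40.5 CPM in CTRL. Every DJL1 library was below every CTRL library (-0.45 ± 0.05, adjusted p = 1.6e-06); its span overlaps MIS12, which was not called (-0.02). DERL1 was lower by a similar amount, at 45.1 to 49.3 CPM in DJL1 and 58.0 to 63.0 CPM in CTRL (-0.34 ± 0.05, adjusted p = 2.7e-05). The difference between DERL3 and its relatives was not tested.

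The EDEM genes encode mannosidase-like proteins that mark glycoproteins for breakdown. EDEM1 was not called (-0.04 ± 0.06), with 30.1 to 32.2 CPM in DJL1 and 29.3 to 32.7 CPM in CTRL. EDEM3 was called lower (-0.18 ± 0.07, adjusted p = 0.048), but its groups overlapped, with 22.9 to 28.7 CPM in DJL1 and 27.5 to 29.1 CPM in CTRL, and 13 of 20 alternatives did not call it, with an adjusted p of up to 0.161 without DJL1 replicate 3. EDEM2 had 7 to 15 counts in a DJL1 library and 26 to 40 in a CTRL library and was not called (-0.63 ± 0.41, adjusted p = 0.22). The readthrough gene MMP24-AS1-EDEM2 covers it and had more counts in all (224 against 152), so reads may be split or left uncounted between them, and the EDEM2 value is uncertain.

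Genes of translocation and export changed little. Of the 5, SEC24D, a cargo adaptor of COPII vesicles, was higher, at 46.6 to 48.7 CPM in DJL1 and 37.0 to 40.7 CPM in CTRL (0.28 ± 0.05, adjusted p = 0.00019). SSR3, a subunit of the translocon-associated TRAP complex, was lower, at 122 to 126 CPM in DJL1 and 137 to 143 CPM in CTRL (-0.17 ± 0.04), and its partner SSR1 was not called (0.01 ± 0.05). The channel subunit SEC61B was called lower (-0.16 ± 0.05, adjusted p = 0.02) with overlapping groups, and the call was lost without CTRL replicate 1 (adjusted p = 0.069) or without DJL1 replicate 1 (adjusted p = 0.051). SEC61A1, which forms the channel itself, had 290.4 to 305 CPM in DJL1 and 278 to 286 CPM in CTRL without overlap and just missed the threshold (0.09 ± 0.04, adjusted p = 0.062); over 20 alternatives its log2 fold change was 0.04 to 0.12 and its adjusted p 0.0079 to 0.37 (edgeR, limma-voom or DESeq2), and 6 of them, among these leaving out DJL1 replicate 1 or 2, called it higher, and RUVBL1, whose span overlaps it, was lower (-0.34). WFS1, an ER membrane protein that restrains ATF6, rose by 0.30, at 54.9 to 58.8 CPM in DJL1 and 45.0 to 47.6 CPM in CTRL.

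Other genes that act on proteins in the ER were called at shares near those of all tested genes at their levels. Of 112 tested genes of 114 listed, 25 were higher and 46 lower in DJL1, with a median log2 fold change of -0.07. Of the 42 at 16 to 64 CPM 10 were higher and 19 lower, and of the 51 at 64 to 256 CPM 8 were higher and 22 lower, beside the shares of 27.5% and 41.7%, and of 23.1% and 51.2%, over all tested genes at those levels. Chaperones, cochaperones and disulfide enzymes outside the 36 were 13 of 34 higher and 10 lower. Among those at 5 CPM or more, the largest increases included nucleotide exchange and J-domain partners of BiP: SIL1, at 10.6 ± 0.31 CPM in DJL1 and 5.04 ± 0.36 CPM in CTRL (1.08 ± 0.10), DNAJC1 (0.81), and DNAJB11 (0.55 ± 0.04), at 149 ± 2.16 CPM in DJL1 and 102 ± 0.76 CPM in CTRL. The thioredoxin-domain gene TXNDC11 and the membrane-bound transcription factor gene CREB3L1 rose by 0.62 and 0.59. Among 15 glycosylation genes 1 was higher and 7 lower, and among 20 further degradation genes 3 were higher and 11 lower. At 16 to 64 CPM 4 of 6 glycosylation genes and 4 of 9 degradation genes were lower. At 64 to 256 CPM these were 2 of 7 and 6 of 7, beside the shares of 41.7% and 51.2% over all tested genes. No test was run on these counts. The largest decreases were those of CREB3L4 (-0.56), a relative of CREB3L1, the prolyl isomerase gene FKBP11 (-0.55), ERLIN2 (-0.51) and the ligase gene RNF139 (-0.42) of the degradation list, and the glucosidase gene MOGS (-0.51), which trims the sugar that the lectins read.

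The PERK arm list of 14 genes had 10 higher and 1 lower, with a median log2 fold change of 0.54. Over all tested genes 27% were higher and 25.1% lower. The sensor gene EIF2AK3 stood at 50.5 ± 1.32 CPM in DJL1 and 38.2 ± 0.69 CPM in CTRL (0.40 ± 0.05, adjusted p = 2.3e-06). ATF4, which this arm controls mainly through translation, averaged 397 ± 11.5 CPM in DJL1 and 402 ± 5.50 CPM in CTRL and was not called (-0.02 ± 0.04, adjusted p = 0.72). DDIT3, which encodes CHOP, had 78.5 ± 9.48 CPM in DJL1 and 49.7 ± 1.97 CPM in CTRL (0.66 ± 0.06). By adjusted p the leading 4 genes were ATF3 (1.32), PPP1R15A (0.98), SESN2 (0.76) and NUPR1 (1.63), which other stresses also induce. The 1 lower gene was PPP1R15B (-0.49), the constitutive eIF2-alpha phosphatase subunit, named after its value was seen. Beside ATF4, EIF2S1 (-0.02) and ASNS were not called and were likewise named after their values were seen. ASNS was counted at a low level, 0.96 ± 0.33 CPM in DJL1 and 1.02 ± 0.20 CPM in CTRL. Overlap with other genes was not examined for the PERK arm list, so reads of ASNS may have been split or left uncounted.

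**Figure D4:**
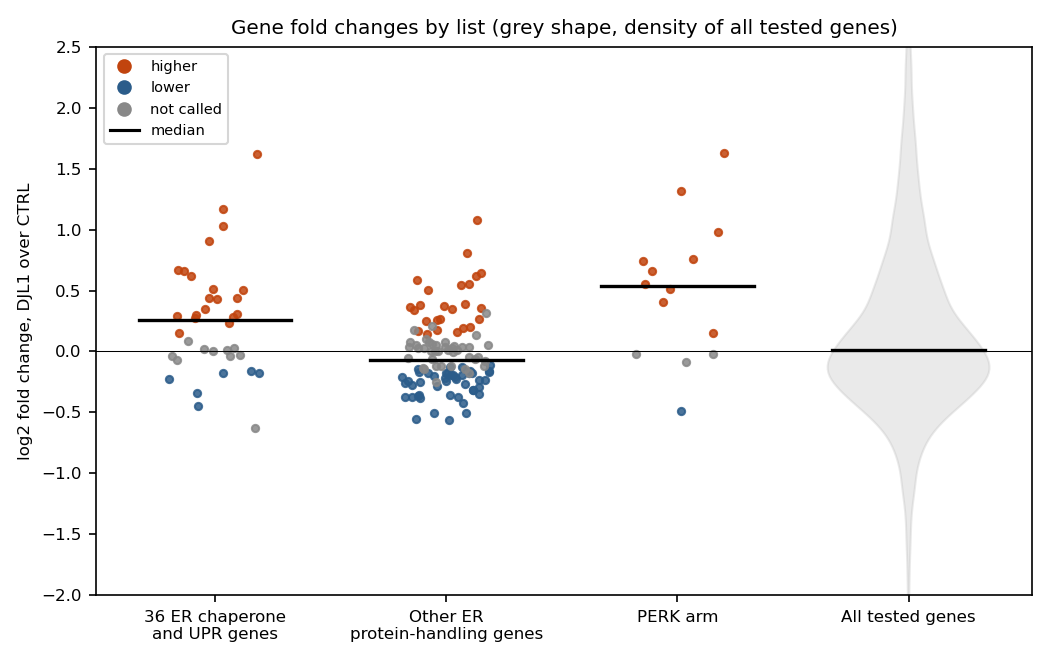
The plot by list shows the log2 fold change of DJL1 over CTRL (y axis) for each tested gene of the 36, of the other ER protein-handling list and of the PERK arm list (dots by call), with the density of all tested genes at the right, whose tails run beyond the axis. Medians (bars) are 0.26, -0.07, 0.54 and 0.01.

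Markers of other cell types moved with these results. All 10 stem cell markers were detected, 9 were lower in DJL1 and POU5F1 was not called (0.01). Their sum was 8440.3 to 9327 CPM in DJL1 and 9897 to 10099.6 CPM in CTRL. All of them averaged above 64 CPM. Of all tested genes, 51.2% were lower at 64 to 256 CPM and 52.6% above 256 CPM. Of 13 tested fibroblast markers 11 were higher and 1 lower, and the list summed to 1391 to 1495 CPM in DJL1 and 952 to 983 CPM in CTRL. Of 11 tested trophectoderm markers 10 were higher, with sums of 328 to 350.0 CPM in DJL1 and 252 to 257 CPM in CTRL, and of 14 tested endoderm markers 8 were higher and 1 lower, with sums of 224 to 232 CPM in DJL1 and 221 to 224 CPM in CTRL. In the fibroblast list COL1A1 was at 484 ± 49.8 CPM in DJL1 and 241 ± 5.41 CPM in CTRL, and COL3A1 at 1.42 ± 0.65 CPM in DJL1 and 0.37 ± 0.08 CPM in CTRL. In the trophectoderm list GATA3 was 5.82-fold and GATA2 3.73-fold higher in DJL1, and in the endoderm list FOXA1 was 6.52-fold, SOX17 5.91-fold and GATA4 5.60-fold higher, each at a mean of at most 18.2 CPM in DJL1; these 7 were named after their values were seen. The fibroblast genes DCN and LUM were at most 0.17 CPM in any library. The trophectoderm genes ELF5 and VGLL1 were listed at 0 in all DJL1 libraries, and the liver gene TTR was at most 0.04 CPM. These low genes were not tested and were also picked after their values were seen, while most tested genes of the same lists were higher, as counted above. Naive-state markers were 8 of 10 higher and 2 lower (DPPA5, -0.49, and TFCP2L1, -0.21). Their sum was 2354 to 3201 CPM in DJL1 and 917 to 992 CPM in CTRL. Most of it came from ALPG, at 2223 ± 400 CPM in DJL1 and 578 ± 30.8 CPM in CTRL. These naive-state genes were named after their values were seen. Over all tested genes 27% were called higher and 25.1% lower. The part of the marker genes in the ER chaperone result was not tested, and in bulk RNA more cells of a type cannot be told apart from more RNA per cell.

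The authors' deposited table of the same comparison lists 35 of the 36 genes, without EDEM2. At an adjusted p under 0.05 the authors' deposited table had 21 higher and 5 lower, while 32.4% of the 20199 genes listed were higher and 30.1% lower. Calls were shared for 33 of the 35, and no log2 fold change in the authors' deposited table differed by more than 0.0222 from the edgeR value. The exceptions were EDEM3, not called in the authors' deposited table, and SEC61A1, called higher there.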

How the data were processed

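The authors deposited raw counts per gene symbol, 1 column per library per the file headers, used without change. HISAT2 2.2.1, Trim Galore 0.4.0 and featureCounts of Subread 1.5.0 appear in the submitters' processing notes, as do GRCh38 and hg38; the strand setting of the counting is not given in the sources used here. The authors' deposited comparison table holds, per the file headers, p-values, adjusted p-values and log2 fold changes; its t statistic and log odds score, also deposited, were not used. A deposited table of log values, of unstated base, was not used.

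Groups came from the sample titles. Nothing says that replicates were separate cultures, so p-values cover only the spread among these libraries, possibly technical. Cell sorting is mentioned in the labels, whereas the design text describes direct RNA extraction. Genes passing edgeR's filterByExpr (minimum count 10, total 15; 26062 of 59251 rows, 99.9% of counts) were scaled by TMM and tested with edgeR's quasi-likelihood test (robust, 2-sided), with Benjamini-Hochberg adjustment over all of them at 0.05; SE came from the fold change and F. CPM use the scaled library sizes. TMM centres log ratios, so a change in total RNA cannot be seen. Named genes were all 36 members, with library values for 7 fixed genes and called members with an absolute log2 fold change of at least 0.4; in the other ER list the 5 largest called changes each way at 5 CPM or more; in the PERK list EIF2AK3, ATF4, DDIT3 and the 4 smallest adjusted p. Members and lists were chosen with earlier results of these data known. The 13 mitochondrial mRNAs listed as a sign of RNA quality were at 0 in all libraries and gave no check. Positions are RefSeq GRCh38.p14, matched for 57842 rows. Alternatives are given in the closing section. DESeq2 1.42.0, edgeR 4.0.16 and limma 3.58.1 ran in R 4.3.3, and other steps in Python 3.11.15. The fit was also run on simulated counts with far fewer changed genes and a common spread within each group. That run does not measure the error of the calls made here.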

Additional observations from a re-analysis of the deposited data

Results flagged for a closer look

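In 36 groups of 4 CTRL libraries, 1 per gene, 1 library stood far from the other 3 in 3 cases, where chance gives about 1 in 20. UGGT1 had 131.9 CPM in CTRL replicate 2 and 133.7 to 133.9 CPM in the other CTRL libraries. EDEM2 had 0.53 CPM in CTRL replicate 2 and 0.42 CPM in the others. OS9 had 153.6 CPM in CTRL replicate 1 and 147.3 to 148.3 CPM in the others. Each gap was small beside the difference between DJL1 and CTRL for UGGT1 and OS9. The DJL1 group, with 3 libraries, was not examined in this way.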

How the results depend on the processing

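Over 20 alternatives, 33 of the 36 genes kept their call where tested, 24 of them called; of these 33, 6 genes that were not called (CREB3L2, MANF, CANX, PDIA6, ERO1A and SSR1) had values on both sides of 0, and the called genes kept their direction; EDEM2 was not tested under the stricter filter. The exceptions were EDEM3, SEC61B and SEC61A1. Without DJL1 replicate 1 EDEM3 was at -0.30 (adjusted p = 0.00047), and without DJL1 replicate 3 EDEM2 was at -0.96 (adjusted p = 0.080), by edgeR. Members higher numbered 20 or 21 and members lower 4 to 6 under every alternative, and no count of calls in the 4 lists moved by over 1.5 times. The members' median log2 fold change, 0.26, was 0.25 with relative log expression factors, 0.27 with upper quartile factors, 0.27 with library size alone, 0.22 with no filter, 0.31 with a stricter filter (3 or more libraries at 1 CPM), 0.25 with DESeq2 and 0.26 with counts thinned to the smallest library. Leaving out each library in turn gave 0.23 to 0.27, with 20 to 21 members higher and 4 to 5 lower. With limma-voom and limma-voom with a variance for each group the median stayed within the spread over DJL1 libraries. An adjusted p under 0.01 used the same fit, so the median could not move. Chosen after the data were seen, protein-coding genes alone gave 0.23. Removal of the trend with transcript length and GC content over protein-coding genes, also chosen then, gave 0.24 and moved SEC61B to -0.06. That removal had no new test and kept the adjusted p of the main fit, so a call could change only with its sign. Over all genes it was not run, because 76.3% of them had a length. Same-numbered libraries did not deviate together (r = -0.01, -0.04 and -0.02 for numbers 1, 2 and 3). Pairing by number was thus not seen, though so few libraries cannot exclude it. With the number as a replicate block the median was 0.27, with 20 members higher and 5 lower. Depth limits EDEM2, at 7 to 40 counts per library.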

Other observations

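The 36 genes were split by chromosome after their values were seen, because the series concerns the acrocentric chromosomes 13, 14, 15, 21 and 22. Of the 8 members there (XBP1, SDF2L1, CRELD2 and DERL3 on chromosome 22, PDIA3 and SELENOS on 15, SEL1L and ERO1A on 14), 7 were higher and 0 lower in DJL1, with a median log2 fold change of 0.47. On other chromosomes 13 of 28 members were higher and 6 lower, with a median of 0.06. Over all tested genes 25.5% were higher and 24.7% lower on these chromosomes, against 27.1% and 25.5% on other autosomes, and on chromosome 22 alone 23.7% were higher and 27.2% lower. The members are few and were chosen for their function, and the difference was not tested.

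Among genes outside the named rule, the J-domain genes DNAJB9 and DNAJC3, both known UPR targets, had log2 fold changes of 0.50 ± 0.06 (27.2 ± 1.14 CPM in DJL1 and 19.2 ± 0.48 CPM in CTRL) and 0.38 ± 0.04 (74.6 ± 2.46 CPM in DJL1 and 57.3 ± 1.99 CPM in CTRL), and both were named after their values were seen. The J-domain gene DNAJC10 went the other way (-0.18 ± 0.05, adjusted p = 0.0051 by edgeR). It stood at 137 ± 10.9 CPM in DJL1 and 156 ± 0.94 CPM in CTRL and was also named after its value was seen. Of the receptors that retrieve ER chaperones, KDELR1 and KDELR2 were lower (-0.36 and -0.18), and KDELR3 was not called (0.32, adjusted p = 0.062).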
